A study of Rattus norvegicus with 12 samples.

Results

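Heat shock proteins and chaperones were read from 50 of the 18144 array features, all those whose only gene symbol began with Hspa to Hspe, Hsp and a digit, Dnaj, Cct2 to Cct8 or Pdia and a digit, or was Tcp1. The 50 features were 25 probes printed as 2 neighbouring spots each, and they named 23 genes. Both spots of a probe were averaged, and the probes were sorted into families by symbol and into cell compartments by what the proteins are known for. RNA came from tissue that the labels call NTS, punched from 250 um slices of 6 rats described as alcoholic and 6 paired controls. The series title calls the first group ethanol treated. Strain, age, sex, dose and duration are not given in the sources used here, nor is what the abbreviation stands for. Each animal had 1 array, on which its own RNA carried Cy5 and a reference RNA of unstated make-up carried Cy3, and all animals were measured against such a reference.

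Molecular chaperones help other proteins reach and keep their shape. HSP70 proteins grip unfolded stretches in a cycle driven by ATP, J-domain proteins (HSP40, symbols Dnaj) deliver the clients and start that cycle, and exchange factors end it. Small heat shock proteins hold unfolding proteins without ATP, the CCT ring folds actin and tubulin, the mitochondrial chaperonin does similar work inside mitochondria, and protein disulfide isomerases (PDI) form and break disulfide bonds in the endoplasmic reticulum. Many of these genes are induced by heat, oxidants or unfolded protein, each through its own compartment's stress response.

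Many well known chaperone genes were not measured through a single symbol. Of 37 chaperone genes listed for description, 11 had a probe with a single symbol. Among the 26 without one were Hspa5, Hspa8, Hsp90aa1, Hsp90b1, Hspd1 and Hspb1, and 6 of the 26, such as Hspa1a and Dnajb1, stood only on features that carried several symbols and are not named from them. No HSP90 member had a probe with a single symbol, and Hsp90ab1 stood on 4 features with several symbols. What follows therefore describes 1 HSP70 (Hspa1l), 1 exchange factor (Hspbp1), 5 probes of 4 small heat shock proteins, the mitochondrial cochaperonin Hspe1, 3 subunits of the CCT ring, 11 probes of 10 J-domain proteins and 3 disulfide isomerases. By compartment, 15 probes belonged to cytosol and nucleus, 9 to the endoplasmic reticulum and 1 to mitochondria.

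Values below are centred log2 ratios: the deposited log2 ratio of a feature, taken as sample over reference, minus the median of its array. A value of 0 is the ratio of the array's middle feature, and 1 is a 2-fold higher ratio. That direction is the likely one, judged by the dyes; no source states it for the values, and the opposite direction would turn every sign. A ratio says how a gene stood against the reference RNA, not how abundant it was, so probes are not ranked by abundance. Array medians before centring lay between 0.35 and 1.85, and 484 to 726 features per array were exactly 0 and were treated as missing. In punched tissue, fewer cells of a type and less RNA per cell cannot be told apart.

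Both spots of most probes gave similar values. In 293 probe-by-array values measured by both spots, the median gap between spots was 0.18 on the log2 scale, 253 gaps were at most 0.5 and 11 exceeded 1. The wide gaps gathered in Hspb8, with a spot at 6.42 and the other at 1.28 in the alcoholic animal of pair 3, and in a probe of Dnajb12, with spots at 5.66 and 3.16 in the control of pair 6. Of the 600 member values, 9 were exactly 0, and 6 of those were Hspb8. Where only 1 spot of a probe was 0, the other spot alone gave the value. Hspb8 was read by at least 1 spot on 10 of the 12 arrays and the other 24 probes on all 12.

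**Figure D1:**
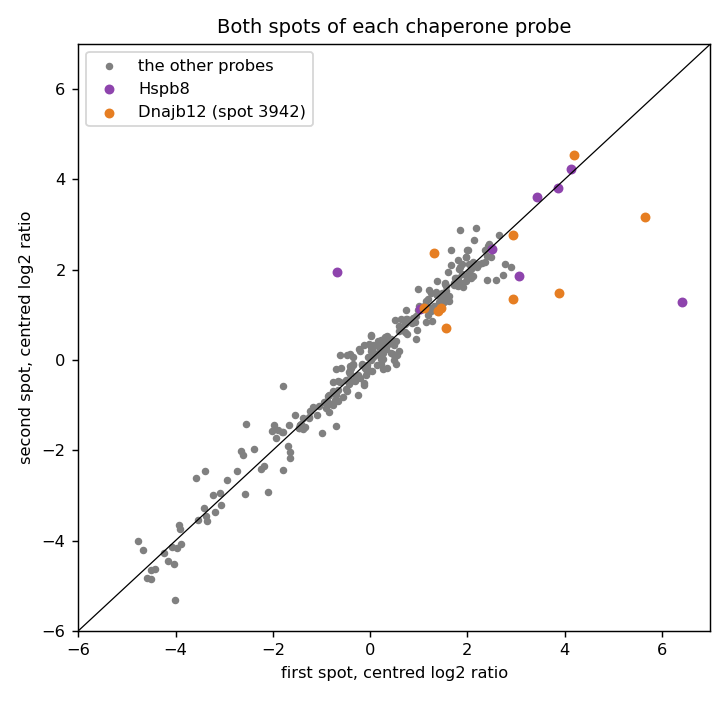
Centred log2 ratio of the first spot (x axis) against the second spot (y axis) for every chaperone probe and array where both were measured, 293 points in all; the line marks equal values. Points far from the line belong mostly to Hspb8 and to the Dnajb12 probe at spot 3942, whose largest gaps were 5.13 and 2.50.

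Against the reference, chaperone genes stood on both sides of the array median. Of the 24 complete probes, 9 lay above the array median on all 12 arrays and 7 below it on all 12. Over all 11017 complete probes the shares were 31.3% above and 36.6% below, so the chaperone counts were near the background. The 9 were Hspa1l, Hspbp1, both probes of Hspb6, Cct3, Dnaja1, both probes of Dnajb12, and Dnajc12. The 7 were Hspb3, Hspb7, Cct6a, Tcp1, Dnajb9, Dnajc14 and Dnajc24. Without centring, 14 probes were above 0 and 4 below 0 on every array.

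The probes of the CCT subunits had the following ratios to the reference. Cct3, the gamma subunit, had the values 2.40, 2.08, 2.17, 1.96, 1.89 and 2.48 in the alcoholic animals of pairs 1 to 6. Its control values were 2.13, 1.91, 1.61, 2.13, 2.21 and 2.50. Tcp1, the alpha subunit, stood at -3.45 ± 0.22 (SD, n = 6) in the alcoholic group, while controls had -3.46 ± 0.61 (SD, n = 6). Cct6a, the zeta subunit, was the lowest member at -4.46 ± 0.29 (SD, n = 6) and -4.28 ± 0.29 (SD, n = 6). Over all arrays Cct3 ranged from 1.61 upward, Tcp1 up to -2.79 and Cct6a up to -3.83. These are values of different probes, and their gaps need not be gaps between the genes.

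Probes that carried the same symbol did not always read alike. Hspb6, or HSP20, is a small heat shock protein abundant in muscle. Its probe at spot 2261 ran from 0.01 to 0.77 and its probe at spot 8599 from 1.40 to 2.35, with no overlap over 12 arrays. Dnajb12 anchors a J domain at the membrane of the endoplasmic reticulum. Its probes had similar means, 2.41 at spot 3942 and 2.18 at spot 4419, but SDs over the 12 arrays of 1.20 and 0.37. Which of them reads its gene was not tested.

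**Figure D2:**
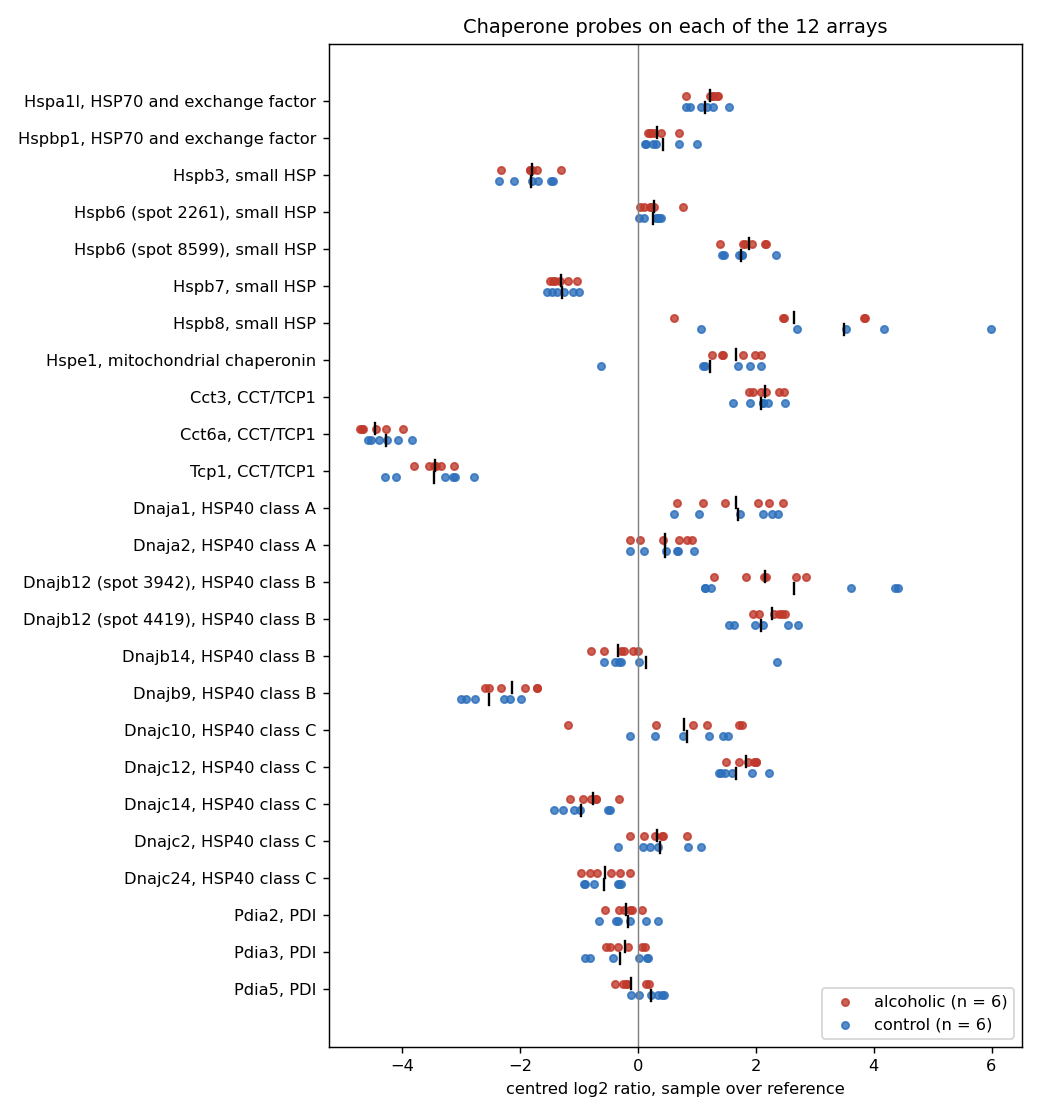
Centred log2 ratio (x axis, sample over reference) of each of the 25 chaperone probes on every array, red for alcoholic and blue for control animals, with a black tick at each group's mean (6 arrays per group, 5 for Hspb8). The groups overlap for every probe, while probes range from Cct6a near -4.4 to Hspb8 near 3.1.

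No chaperone probe was called as different between alcoholic animals and their controls. With pairs as blocks in limma, 0 of 25 chaperone probes passed an adjusted p of 0.05. Nor did any of the 11852 probes tested (0.0%), and the smallest adjusted p in this fit was 0.999. At an unadjusted p under 0.05 there were 2 chaperone probes, Pdia5 (lower) and Dnajb9 (higher), against 2.37% of all probes (1.3% higher and 1.07% lower). The ranges of alcoholic and control animals overlapped for 25 of 25 chaperone probes, and 0.00908% of all complete probes had groups that did not overlap. By limma's estimates, 14 chaperone probes lay above 0 and 11 below, where 51.7% of all probes lay above and 48.2% below. The median difference was 0.01 in chaperone probes and 0.01 over all probes.

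**Figure D3:**
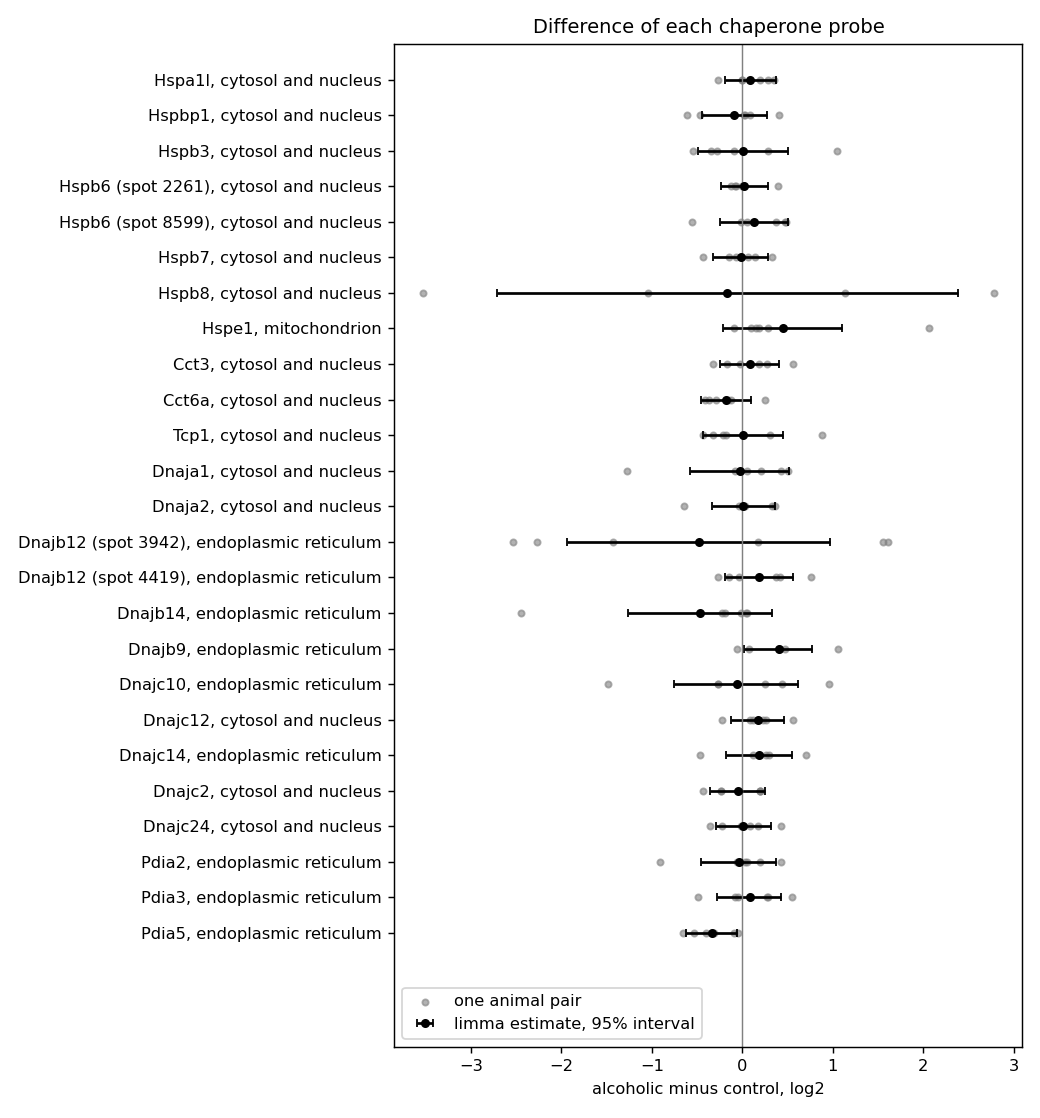
Alcoholic minus control difference on the log2 scale (x axis) for each chaperone probe, with its compartment; black points and bars are limma's estimate and 95% interval, grey points the single animal pairs (6 per probe, 4 for Hspb8). Intervals of 23 of the 25 probes cross 0, and those of Pdia5 and Dnajb9 do not before adjustment over all probes.

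Pdia5 was the member with the smallest p. It encodes a disulfide isomerase of the endoplasmic reticulum (Entrez gene 360722; spots 4270 and 4271). Its values in alcoholic animals of pairs 1 to 6 were -0.25, -0.19, 0.18, -0.21, -0.39 and 0.14. In their controls they were 0.41, 0.34, 0.23, -0.12, 0.01 and 0.45. The alcoholic animal was the lower of its pair in all 6 pairs, by 0.05 in pair 3 and 0.66 in pair 1, but the ranges of the groups overlapped. The difference by limma was -0.34 (SE 0.12, 95% interval -0.62 to -0.06), a ratio of 0.79. Its unadjusted p by limma was 0.024 and its p adjusted over all probes 0.999. Among all complete probes, 0.808% were lower in all 6 pairs. The spots differed by -0.35 and -0.33 when fitted alone, the first being lower in 5 of 6 pairs and the second in 6 of 6. In 2 alcoholic animals the spots themselves lay apart. They read -0.61 and 0.11 in pair 1, and -0.48 and 0.10 in pair 2. Without pair 1 the difference was -0.28 (unadjusted p 0.0677 by limma), without pair 2 it was -0.30 (0.0708) and without pair 5 -0.33 (0.0578). On the values without centring it was -0.39 with an unadjusted p of 0.259.

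The other disulfide isomerases had estimates nearer 0. Pdia3, or ERp57, works with calnexin and calreticulin on glycoproteins; it differed by 0.08 (95% interval -0.28 to 0.43) and was higher in 3 of 6 pairs. Pdia2, an isomerase best known from the pancreas, differed by -0.04 (-0.46 to 0.37) and was higher in 4 of 6 pairs. Whether Pdia5 differed from these more than they did from each other was not tested.

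Dnajb9 was the other probe under an unadjusted p of 0.05. It encodes ERdj4, a J-domain protein of the endoplasmic reticulum that works with the HSP70 protein BiP and is a target of the unfolded protein response. Alcoholic animals of pairs 1 to 6 had values of -2.59, -2.52, -1.71, -2.33, -1.92 and -1.72. Controls had -3.01, -2.92, -2.17, -2.27, -1.99 and -2.77. The alcoholic animal was the higher in 5 of 6 pairs, by 1.06 in pair 6 and by 0.07 in pair 5, and the groups overlapped over most of their range. The difference by limma was 0.40 (SE 0.16, 95% interval 0.02 to 0.77). Its unadjusted p by limma was 0.0395 and its adjusted p 0.999. It rested more on one spot than on the other: 0.61 (SE 0.18) at the first and 0.18 (SE 0.28) at the second. Without pair 6 it was 0.26, with an unadjusted p of 0.0972 by limma, and without pairs 1, 2 or 3 that p lay between 0.0759 and 0.0763. With no pair block it was 0.112.

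Over all 9 probes of the endoplasmic reticulum, those above included, 4 were higher and 5 lower, with a median of -0.04. Dnajc10, or ERdj5, reduces disulfides of proteins bound for degradation; its difference was -0.06 (95% interval -0.75 to 0.62), and those of its spots -0.21 and 0.09. It came to 0.22 without pair 2, where the alcoholic animal stood at -1.19 and its control at 0.29. Dnajc14, a J-domain protein of the membrane known for export of dopamine receptors, differed by 0.18 (95% interval -0.18 to 0.55) and was higher in 5 of 6 pairs; leaving out 1 pair gave 0.08 to 0.31, the latter without pair 3. The probe of Dnajb12 at spot 3942 had 2.18, 2.68, 2.85, 1.84, 1.29 and 2.14 in alcoholic animals and 3.61, 1.14, 1.24, 4.37, 1.13 and 4.41 in controls, with 3 controls above and 3 below every alcoholic animal. In pair 1 the alcoholic value came from the first spot alone and the control value from the second alone. The probe differed by -0.48, and by -0.90 to -0.08 when 1 pair was left out, while the probe at spot 4419 differed by 0.18.

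For Dnajb14, a membrane J-domain protein close to Dnajb12, 1 array carried most of the difference. Alcoholic animals of pairs 1 to 6 stood at -0.28, -0.23, 0.00, -0.09, -0.58 and -0.80. Controls stood at -0.32, -0.28, 0.01, 2.36, -0.39 and -0.57. The control of pair 4 was far above the rest in both spots, at 1.84 and 2.88. The difference of -0.47 (SE 0.34) became -0.07 without that pair.

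In the mitochondrial member, too, 1 array stood out. Hspe1, or HSP10, is the lid of the HSP60 chaperonin. It stood at 1.25, 1.42, 1.44, 1.99, 2.08 and 1.79 in alcoholic animals and at 1.10, 1.14, -0.62, 2.08, 1.90 and 1.70 in controls of pairs 1 to 6. The control of pair 3 was the only array on which it lay below the array median, with both spots low, at -0.76 and -0.48. With that pair the difference was 0.45 (SE 0.28, 95% interval -0.21 to 1.10), and without it 0.12. In the other 5 pairs the differences lay between -0.09 and 0.28. The control array of pair 3 also had the lowest SD over all features, 1.515, where the highest of the 12 arrays was 1.905. Since each animal had 1 array, which both spots share, the animal and its array cannot be told apart.

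**Figure D4:**
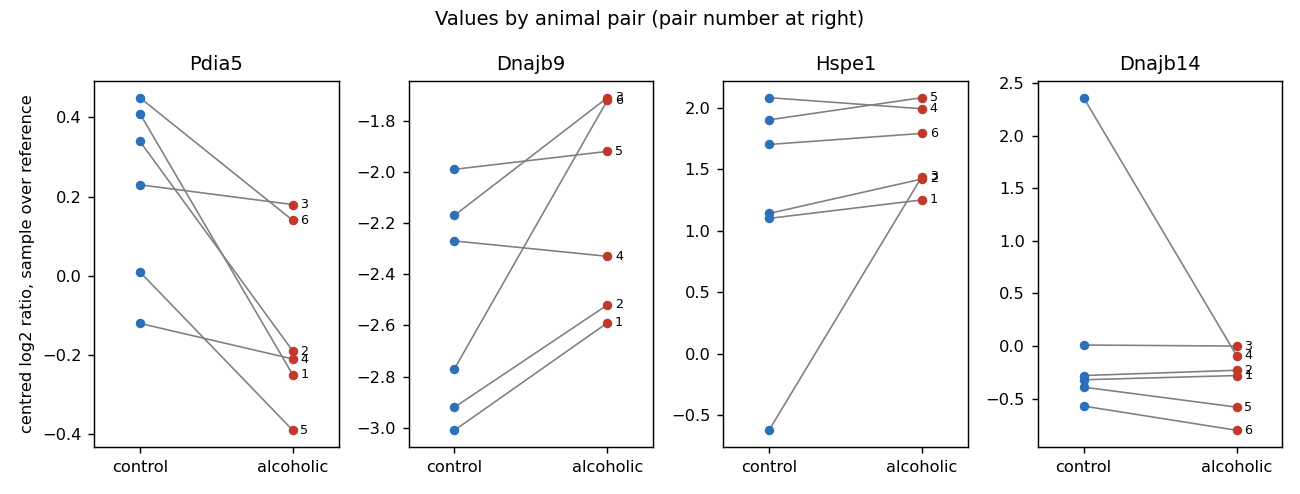
Centred log2 ratio (y axis, own scale per gene) of Pdia5, Dnajb9, Hspe1 and Dnajb14 in the control and the alcoholic animal of each pair, joined by a line and numbered. All 6 lines of Pdia5 slope down and 5 of 6 of Dnajb9 slope up, while Hspe1 and Dnajb14 each have 1 steep line, from pair 3 and pair 4.

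Of 15 cytosolic and nuclear probes, 9 were higher and 6 lower, with a median of 0.01 and a range from -0.18 to 0.17. Hspa1l, an HSP70 best known from testis, had a mean of 1.22 ± 0.21 (SD, n = 6) in alcoholic animals and of 1.13 ± 0.27 (SD, n = 6) in controls. Its partner in the HSP70 cycle, the exchange factor Hspbp1, differed by -0.09 (95% interval -0.45 to 0.27), its spots by -0.32 and 0.13. Dnajc12, a J-domain protein that helps fold the hydroxylases of aromatic amino acids, among them the enzyme that starts catecholamine synthesis, differed by 0.17 (95% interval -0.12 to 0.46) and was higher in 5 of 6 pairs. Dnajc2, which sits on ribosomes, differed by -0.05, its spots by -0.26 and 0.16, and Dnajc24, of diphthamide synthesis, by 0.01. Of the CCT subunits, Cct6a was lower in 5 of 6 pairs, at -0.18 (95% interval -0.46 to 0.10), but its spots differed by 0.02 and -0.39. Cct3 differed by 0.08 and Tcp1 by 0.01; under quantile normalization and without centring Tcp1 turned negative, at -0.05 and -0.04.

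The small heat shock proteins held both the lowest and the highest SD over arrays. Hspb7, known from heart and muscle, had an SD of 0.18 over the 12 arrays and a difference of -0.02 (95% interval -0.32 to 0.28). Hspb3, also a muscle protein, differed by 0.01, and the probes of Hspb6 by 0.02 and 0.13. Hspb8, or HSP22, which works with Bag3 to clear misfolded proteins, had alcoholic values of 2.48, 3.83, 3.85, 0.62 and 2.46 in pairs 1, 2, 3, 4 and 6. Its controls stood at 3.53, 2.70, 1.07, 4.18 and 5.99 in pairs 1, 2, 3, 5 and 6, those of pairs 2 and 6 from 1 spot each. Only 4 pairs had both values, and the difference of -0.17 rests on those, the fit having dropped pairs 4 and 5. Its interval ran from -2.71 to 2.38, and the SD over its 10 arrays was 1.56.

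Intervals bounded most changes to under 2-fold. For 21 of 25 chaperone probes the 95% interval of the difference lay within a 2-fold change either way, or 84.0%, against 86.3% of all probes. For 18 of 25 it lay within 1.5-fold, or 72.0% against 65.9%. The 4 probes with wider intervals than 2-fold were Hspb8, Hspe1, Dnajb14 and Dnajb12 at spot 3942. In simulated data of the same design with 11017 probes, 62% of probes changed 2-fold were called and 12% of those changed 1.41-fold. There were 50 changed probes of each size, and the same data also held probes changed 2.83-fold and 4-fold. Their presence eased the adjustment, so a probe changed alone would meet a stricter cutoff. The noise was normal, with each probe's own residual spread, and independent between probes. Single arrays far from the rest were not built in, so these shares need not hold for the real data. In those, 21.0% of complete probes had an array over 1 log2 unit from their median.

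Chaperone probes varied among animals about as much as other probes did. The SD over the 12 arrays had a median of 0.33 in complete chaperone probes and 0.34 in all complete probes. It was 1.20 for Dnajb12 at spot 3942, 0.87 for Dnajc10, 0.81 for Dnajb14 and 0.74 for Hspe1, and only 0.18 for Hspb7, 0.20 for Hspb6 at spot 2261, 0.24 for Hspa1l and 0.26 for Cct3.

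Differences between the animal pairs were not called for any chaperone probe. In limma's F test of the pair block, a test chosen after seeing the values, 0 of 25 passed after adjustment (smallest adjusted p 0.179) and 4 had an unadjusted p under 0.05. Over all probes 0.0936% passed and 19.4% had an unadjusted p under 0.05, so the count of 4 was near the background. The 4 were J-domain proteins, and their values are given as a description. Dnaja1, a cytosolic partner of HSC70, had alcoholic values of 0.67, 1.48, 1.10, 2.47, 2.04 and 2.22 in pairs 1 to 6 and control values of 0.61, 1.04, 2.38, 2.27, 2.12 and 1.73. Its relative Dnaja2 had alcoholic values of -0.14, 0.43, 0.04, 0.69, 0.92 and 0.84 and control values of -0.14, 0.10, 0.68, 0.66, 0.95 and 0.48. Animals of a pair lay close together in pairs 1, 4 and 5 and apart in pairs 2, 3 and 6, most of all in pair 3. Dnajc10 had its lowest pair means in pairs 1 and 2, at 0.08 and -0.45, and its highest, 1.65, in pair 5. Dnajc2 had its highest in pairs 1 and 2, at 0.95 and 0.64, and its lowest, -0.24, in pair 3. What animals of a pair had in common beyond the pairing was not stated in the labels.

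**Figure D5:**
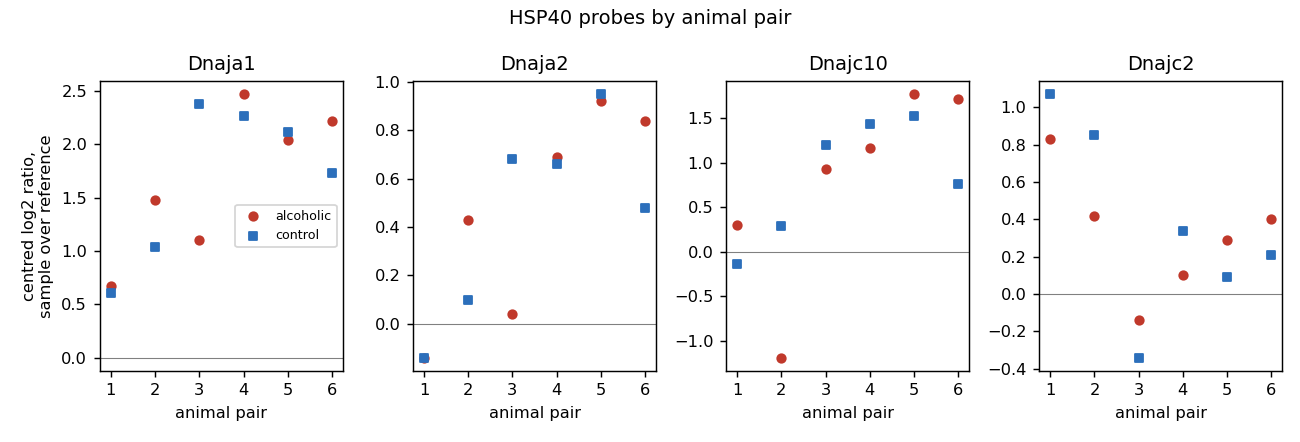
Centred log2 ratio (y axis, own scale per gene) of Dnaja1, Dnaja2, Dnajc10 and Dnajc2 by animal pair (x axis), red circles for alcoholic and blue squares for control animals. Dnaja1 and Dnaja2 lie lowest in pair 1, and in pair 3 both have the control well above the alcoholic animal.

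The pair differences of the class A relatives Dnaja1 and Dnaja2 were alike. Their alcoholic minus control differences were 0.05 and 0.01 in pair 1, 0.43 and 0.33 in pair 2, -1.27 and -0.64 in pair 3, 0.21 and 0.03 in pair 4, -0.08 and -0.04 in pair 5, and 0.50 and 0.36 in pair 6. Both had the same sign in 6 of 6 pairs, although neither had a mean difference away from 0 (-0.03 and 0.01). Over the 6 pairs Pearson's r was 0.98 and Spearman's rho 1.0, each with an exact two-sided permutation p of 0.00278, the smallest this design allows. Without pairs 3 and 6, r was 0.92. Among 276 pairs of member probes compared, 0.98 was the highest r, the median being 0.01. The Benjamini-Hochberg adjusted permutation p was 0.383. With 276 comparisons, even the smallest possible permutation p could not pass adjustment unless many probe pairs reached it. The adjusted p therefore cannot decide whether this likeness exceeds chance. Hspe1 and Dnajb12 at spot 3942 also had a rho of 1.0 and the same permutation p and adjusted p, with an r of 0.65 and the same sign in 4 of 6 pairs. Among all 11016 other complete probes, Dnaja2 ranked at 13 by its r with Dnaja1, so 12 other probes had a higher r with it.

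Other genes of protein folding gave no call either. Of 92 listed genes for heat shock regulation, co-chaperones, folding and degradation in the endoplasmic reticulum, the unfolded protein response, prefoldin and mitochondrial quality control, 41 were measured by 45 probes. By limma, 44 were tested and 0 passed an adjusted p of 0.05. Under an unadjusted p of 0.05 by limma there were 2, against 2.37% of all probes. There were 17 higher and 27 lower, with a median of -0.02, where 51.7% of all probes were higher and 48.2% lower. Selenos, a selenoprotein of endoplasmic reticulum-associated degradation, had an estimate of -0.38 (95% interval -0.66 to -0.11). The alcoholic animal was below its control in 6 of 6 pairs, as in 0.808% of all complete probes. The adjusted p of Selenos by limma was 0.999. Timm44, which ties the HSP70 of mitochondria to the import channel, differed by 0.46 (95% interval 0.11 to 0.80, higher in 5 of 6 pairs). Ppp1r15a, or GADD34, which reverses the translation block of the stress response, differed by 0.28, while the 3 probes of Bag6, of protein quality control in the cytosol, differed by 0.26, -0.14 and 0.02. Of 7 genes of the unfolded protein response 3 were higher and 4 lower, with a median of -0.07. Of 11 folding genes of the endoplasmic reticulum 4 were higher and 7 lower, with a median of -0.05. Co-chaperones of HSP90 and HSP70 had 1 higher and 5 lower (median -0.04), and endoplasmic reticulum-associated degradation 1 and 4 (-0.07). The mitochondrial list had 3 higher and 0 lower (0.13), HSP110 and exchange factors 3 and 3 (0.0), and prefoldin 1 and 2 (-0.01).

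Markers of cell types that a punch can hold were read beside these values. Astrocyte markers had 7 of 8 probes higher with a median of 0.12, endothelial markers 5 of 5 lower with a median of -0.09, and neuron markers 4 of 6 higher with a median of 0.01. Microglial markers had 5 of 6 higher (median 0.04), oligodendrocyte markers 2 of 4 (-0.02), blood markers 4 of 5 (0.06), and choroid plexus and leptomeningeal markers 4 of 6 (0.15). Markers of NTS and catecholaminergic neurons had 3 of 5 higher (0.01). By limma 0 probes of these lists were called, and 1, of the last list, had an unadjusted p under 0.05. Over all probes 0.0% were called and 2.37% had an unadjusted p under 0.05 by limma, while 51.7% were higher and 48.2% lower. With 4 to 8 probes per list, such counts cannot show a shift in cell types. Their part in the chaperone values was not tested. For the tissue itself, 5 of 12 listed markers of NTS and catecholaminergic neurons were measured, and ratios to a reference cannot show whether a marker is present.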

How the data were processed

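The deposited table held log ratios, taken as log2, of 18144 features on 12 arrays of 2 colours. How the authors corrected background, filtered or normalized is not stated for it. Base 2 is the likely base, judged by a largest absolute value of 13.92. That is above the 11.09 that natural logs of 16-bit signals can reach when both signals are at least 1. Exact zeros became missing values, array medians were subtracted, and features sharing symbol and accession were averaged as 1 probe; different accessions of a gene stayed apart. Probe names came from an older platform annotation. Probes with both values in at least 4 of 6 pairs (11852) were tested in limma 3.58.1 (R 4.3.3; lmFit, eBayes), pairs being fixed blocks, and p-values were adjusted over all of them by Benjamini-Hochberg at 0.05. The labels state the pairs. Deviations of a pair's arrays correlated across probes with r from 0.04 in pair 3 to 0.44 in pair 4. The test was tested on simulated data. The rule for named genes took listed chaperones, the 3 smallest p per family, probes that went one way in every pair, extremes of SD and ratio, and 4 other folding genes; it named 24 of 25 probes, and Dnajc24 is given for completeness. The members and lists were chosen with earlier results of these data known, and the F test of pairs and the likeness of members after seeing the values. Alternatives changed the block, zeros, centring, scaling, averaging, filter, prior and pairs. The number of arrays limits the precision. No sequences are shown, since the tables used here hold none.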

Additional observations from a re-analysis of the deposited data

Results flagged for a closer look

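Dixon's gap test was run on 58 sets of 5 or 6 arrays. The sets were the chaperone probes and 4 other folding genes, each treatment alone. The test singled out 1 extreme array in 6 sets, where about 2.9 would arise by chance if values were normal. The same share was not computed over all probes. The count therefore cannot show whether these genes held more such arrays than other probes did. Hspe1 stood at -0.62 in the control of pair 3, where the other controls began at 1.10. Dnajb14 stood at 2.36 in the control of pair 4, where the others ended at 0.01. Hspa1l stood at 0.81 in the alcoholic animal of pair 2 against 1.23 to 1.36 in the others; the control of the same pair was also at 0.81. Hspb6 at spot 2261 stood at 0.77 in the alcoholic animal of pair 5 against at most 0.28. Selenos stood at -2.71 in the alcoholic animal of pair 2, below -1.84, and Ppp1r15a at -3.77 in the control of pair 2, below -3.33. In pair 2, then, 3 of the 6 values occurred. For Hspe1, Dnajb14 and Hspa1l both spots of the probe stood apart in the same direction. Both spots share an array, so this cannot tell an animal from its array.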

How the results depend on the processing

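No alternative called a chaperone probe or another folding gene, and the median difference of chaperone probes stayed between -0.04 and 0.06. Without centring, 2 of all probes were called, 0 in the other alternatives. The smallest adjusted p over all probes by limma, 0.999 in the main fit, depended on the setting. It was 0.0731 without pair 3, 0.776 with exact zeros kept, 0.0176 without centring, and at least 0.998 in the other alternatives. The count of chaperone probes under an unadjusted p of 0.05, 2 in all, was 1 in the fit with no replicate block, 0 without centring, 1 under quantile normalization, and 0 to 2 when leaving out each pair in turn (0 without pair 1 or pair 2, 1 without pair 5 or pair 6). The probes were not always the same: without pair 3 they were Pdia5 and Dnajc14 (unadjusted p 0.0428 by limma), and Dnajb9 had 0.0763. Dropping the animal pair block changed no call; the probes under an unadjusted p of 0.05 went from 281 to 136, and to 427 without pair 3. The pair F test called 0 chaperone probes and 0 to 174 of all probes, the most without centring. Without centring 14 probes lay above 0 and 4 below it on every array. With every feature on its own, 13 features lay above the array median on every array and 12 below it. Those are counts of single spots, 2 to a probe, where the main setting had 9 and 7 of 24 probes. Signs of small differences were not firm: 9 of 25 probes kept theirs throughout and 16 did not. Without centring Hspb3, Tcp1, Dnaja2 and Dnajc24 each came to -0.04 and Hspb6 at spot 2261 to -0.03. Under quantile normalization Tcp1 came to -0.05 and Dnaja2 to -0.01. At the first spot alone Hspb3 came to -0.06, Cct6a to 0.02 and Dnaja1 to 0.04. Of 24 probes with both spots tested, 9 had spots of opposite sign, the widest being Hspbp1 (-0.32 and 0.13), Dnajc2 (-0.26 and 0.16), Cct6a (0.02 and -0.39) and Dnajc10 (-0.21 and 0.09). Hspb8 came to 0.02 with exact zeros kept, and Dnajb12 to -0.10 when its probes were averaged. Leaving out 1 pair moved Hspbp1 between -0.19 and 0.01, Hspb3 between -0.20 and 0.12, Hspb6 at spot 2261 between -0.05 and 0.05, Hspb7 between -0.09 and 0.06, Cct3 between -0.02 and 0.16, Tcp1 between -0.17 and 0.10, Dnaja1 between -0.13 and 0.22, Dnaja2 between -0.06 and 0.14, Dnajc10 between -0.27 and 0.22, Dnajc2 between -0.10 and 0.02, Dnajc24 between -0.07 and 0.09, Pdia2 between -0.14 and 0.13 and Pdia3 between -0.02 and 0.19; the cause was not tested. With no change of sign, Hspa1l moved between 0.04 and 0.16, Hspb6 at spot 8599 between 0.06 and 0.27, Dnajb12 at spot 4419 between 0.07 and 0.27, Dnajc12 between 0.09 and 0.25 and Dnajc14 between 0.08 and 0.31. Hspb8 could not be tested without pair 1, 2, 3 or 6, since fewer than 4 pairs remained. Without centring the median of all probes moved from 0.01 to -0.05. Signals over background were not used here.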
